A study of Mus musculus with 23 samples.

Results

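The nuclear genes of the mitochondrial respiratory chain and ATP synthase were followed in mouse ear tissue after a punch wound. Members were chosen by symbol alone: genes starting with Ndufa, Ndufb, Ndufc, Ndufs, Ndufv, Uqcr, Cox4i, Cox5, Cox6, Cox7, Cox8 or Atp5, together with Sdha, Sdhb, Sdhc, Sdhd and Cyc1. The array carried 115 rows with 1 such symbol, and the row with the highest mean was kept for each gene, which gave 90 members of 19938 genes tested. The prefixes also took in 7 assembly factors of complex I (Ndufaf genes), which are described apart from the subunits.

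Total RNA of ear pinna was hybridised to 23 arrays of the type Affymetrix Mouse Gene ST, all from female mice at an age of 4 weeks. Wild-type mice were C57BL/6J with the genotype Rhbdf2+/+, and cub mice were B6.Cg-Rhbdf2cub/J with the genotype Rhbdf2cub/cub. Rhbdf2 encodes iRhom2, a membrane protein needed for the maturation of the protease ADAM17, and the study compared the genotypes at each time after wounding. Punched ears were sampled at 15 min, 2 h and 24 h as a 1-mm rim around a 2-mm hole, cut with a 3-mm biopsy punch. Mice of both genotypes were also sampled at 0 h, with no size of hole or biopsy given, so the 0 h piece of tissue may also differ from a wound rim. Each genotype and time had 3 arrays of separate mice, except cub at 15 min with 2.

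Complexes I and II pass electrons from NADH and succinate to ubiquinone, complex III passes them to cytochrome c, and complex IV (cytochrome c oxidase) hands them to oxygen. The proton gradient built on the way drives ATP synthase. Most subunits are encoded in the nucleus, several of complex IV come in isoforms restricted to some tissues, and assembly factors help to build a complex without staying in it. The subunits encoded in mitochondrial DNA were not analysed here.

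All values are log2 RMA values, differences are log2 differences with their standard error, and a gene is said to rise or fall where limma's test gave an adjusted p (Benjamini-Hochberg over all genes) under 0.05. Markers of keratinocytes, the main cells of the epidermis, had a mean of 11.74 to 12.16 on every array. Over the members, 22 arrays had a mean between 9.68 and 9.87, and wild type at 24 h replicate 1 stood apart at 10.01, against 9.77 and 9.79 in its group. Named wild-type results of members at 24 h that lose or gain a call without that array are given with and without it. So are called results that move by over 1.5 times. Results of other lists and the share of all genes called are not given without that array. Rhbdf2 itself was higher in cub at 0 h by 0.41 ± 0.09 (limma, adjusted p = 0.00883) and lower at 24 h by −0.49 ± 0.09 (adjusted p = 0.00218). Whether its probes lie within the altered stretch is unknown here, so these values check no label.

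At 24 h the respiratory chain did not move as a block: some members rose, others fell, and most were not called. In wild type, 16 of 90 members rose and 10 fell against 0 h, next to 20.5% of all genes higher and 22.4% lower. In cub, 15 rose and 16 fell, next to 21.1% higher and 24.9% lower. The share of members called, 28.9% in wild type and 34.4% in cub, was below that of all genes, 42.8% and 46.0%. The median difference over the members was 0.02 in wild type and −0.002 in cub, next to −0.02 and −0.003 over all genes. These are bulk samples, in which fewer cells of a type and less RNA per cell cannot be told apart.

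Both genotypes called 9 members higher and 10 lower at 24 h, and no member was called in opposite directions. Another 7 rose in wild type alone by this threshold, 6 rose and 6 fell in cub alone, and 52 were called in neither. Of all genes, 42.8% were called in wild type and 46.0% in cub, but the share called in both was not counted. These counts thus do not show whether members were shared between genotypes more or less than other genes. The interaction, which tests whether the change from 0 h differs between genotypes, called 0 members at 24 h by limma, next to 1% of all genes. At an unadjusted p under 0.05 there were 8 members (8.89%) and 11% of all genes. Without wild type at 24 h replicate 1, 11 of the 16 higher calls and all 10 lower calls in wild type were kept, 5 higher calls were lost, and 1 higher and 7 lower calls were gained. The gained lower calls were Atp5h, Atp5l, Ndufa1, Ndufc1, Uqcrb, Uqcrh and Ndufa4l2.

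**Figure D1:**
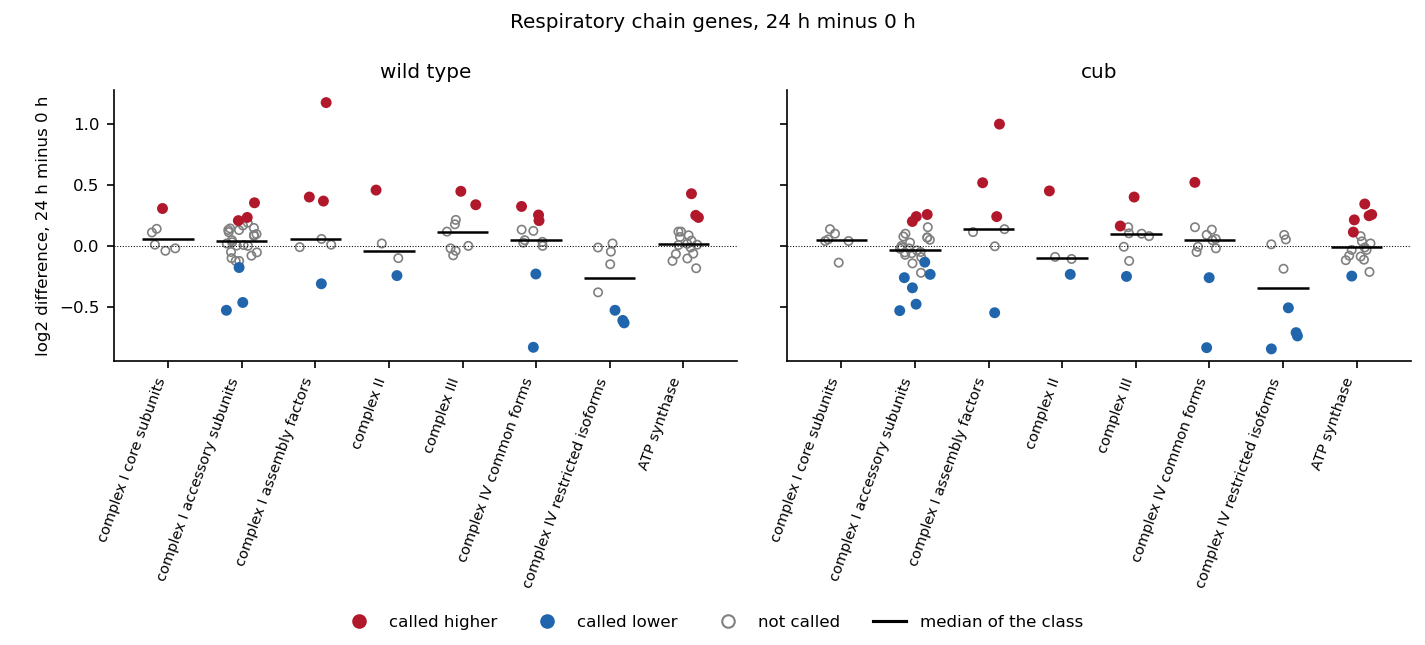
Log2 difference of each member between 24 h and 0 h in wild type (left) and cub (right), by class of the chain, where points are genes, filled where called, and bars are class medians. Ndufaf4 is the highest point in both panels (1.17 and 1.00), and the restricted isoforms of complex IV have the lowest class median (−0.27 and −0.35).

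Ndufaf4, an assembly factor of complex I, had the largest difference of any member at 24 h in both genotypes. In wild type its values were 7.29, 7.22 and 7.30 at 0 h and 8.29, 8.45 and 8.59 at 24 h. In cub they were 7.27, 7.36 and 7.22 at 0 h and 8.24, 8.40 and 8.20 at 24 h. Every 24 h array lay above every 0 h array. The rise was 1.17 ± 0.08 in wild type (limma, adjusted p = 8.27e-11) and 1.00 ± 0.08 in cub (adjusted p = 6.09e-10), about a doubling. Ndufaf4 was also the single member that rose at 2 h, in cub, where its values were 7.68, 7.79 and 7.70 (0.44 ± 0.08, adjusted p = 0.000525). In wild type at 2 h the values of 7.53, 7.51 and 7.49 gave a difference of 0.24 ± 0.08 that missed the threshold (adjusted p = 0.0636). The interaction at 2 h called no member, so the genotypes were not shown to differ in this early change.

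The promoter of Ndufaf4 is shown because the gene had this leading change. It spans 250 bases before to 50 after the annotated start (RefSeq, GRCm38.p6, chr4:24897833-24898132, plus strand, 5′ to 3′). Capitals mark matches to motifs described in the next paragraph, first NRF1 and then overlapping GC boxes.
Ndufaf4: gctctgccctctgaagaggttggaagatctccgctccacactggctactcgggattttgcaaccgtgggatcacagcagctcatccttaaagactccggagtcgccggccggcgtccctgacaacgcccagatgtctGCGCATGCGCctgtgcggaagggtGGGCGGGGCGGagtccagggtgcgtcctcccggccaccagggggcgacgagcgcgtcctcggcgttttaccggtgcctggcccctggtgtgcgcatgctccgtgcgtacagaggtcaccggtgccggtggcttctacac

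NRF1 is a transcription factor known for binding promoters of respiratory chain genes. Promoters of that length were found for 73 of the 90 members and for 27025 genes in all, and each was searched on both strands for 5 motifs picked from general knowledge. The NRF1 motif GCGCATGCG was present for 10 of 73 members (13.7%) and 1.95% of all genes. A form with a further C at its 3′ end was searched first and was present for 7 of 73 members (9.59%) and 1.07% of all genes, and the shorter form was set after that result was seen. The ETS motif CCGGAAG, which GABPA binds, was present for 18 members (24.7%) and 9.93% of all genes. The YY1 motif AAGATGG was present for 10 members (13.7%) and 7.28% of all genes. The GC box GGGCGG, bound by SP1, was present for 33 members (45.2%) and 38.2% of all genes, and the E-box CAGCTG, bound by myogenic factors, for 6 members (8.22%) and 18.3% of all genes. These shares are descriptions without a test, and the median GC content was 58.3% for the members' promoters and 52.8% for all genes.

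Other assembly factors of complex I moved both ways. Ndufaf2 rose at 24 h by 0.40 ± 0.08 in wild type (limma, adjusted p = 0.000358) and 0.52 ± 0.08 in cub (adjusted p = 1.69e-05), and Ndufaf6 by 0.37 ± 0.08 (adjusted p = 0.000614) and 0.24 ± 0.08 (adjusted p = 0.0162). The cub call of Ndufaf6 was lost without cub at 24 h replicate 1 or 2 or at 0 h replicate 3. Ndufaf3 fell in both genotypes. Its values at 0 h were 8.99, 9.02 and 9.05 in wild type and 9.04, 8.99 and 8.95 in cub. At 24 h they were 8.89, 8.64 and 8.60 in wild type and 8.39, 8.45 and 8.50 in cub, with no overlap with 0 h in either genotype. The fall was −0.31 ± 0.06 in wild type (adjusted p = 0.000363) and −0.55 ± 0.06 in cub (adjusted p = 2.56e-07). Ndufaf1 was lower at 2 h in both genotypes, by −0.36 ± 0.07 (adjusted p = 0.00241) and −0.34 ± 0.07 (adjusted p = 0.00264), and stood at 0.06 ± 0.07 and 0.00 ± 0.07 from 0 h at 24 h, which was not called. Ndufaf5 and Ndufaf7 were not called at 24 h against 0 h in either genotype.

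Of the 6 core subunits of complex I analysed here, Ndufs8 alone was called at 24 h, in wild type. The share of all genes called was 42.8% in wild type and 46% in cub. Ndufs8 carries iron-sulfur clusters of the electron path, and its values went from 10.50, 10.63 and 10.59 to 10.93, 10.84 and 10.88. The rise was 0.31 ± 0.05 (limma, adjusted p = 1.18e-05), against 0.10 ± 0.05 in cub (adjusted p = 0.093). The interaction did not pass (adjusted p = 0.163). Ndufs1, Ndufs3, Ndufs7, Ndufv1 and Ndufv2 differed from 0 h by −0.14 to 0.14 and were not called in either genotype. Without wild type at 24 h replicate 1, Ndufv1 was called higher in wild type (0.17 ± 0.07, adjusted p = 0.0451).

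Among the 28 accessory subunits of complex I, 3 rose and 3 fell in wild type and 3 rose and 6 fell in cub at 24 h. These counts stood next to 20.5% of all genes higher and 22.4% lower in wild type, and 21.1% and 24.9% in cub. Ndufa6 fell in both: its 0 h values were 10.03, 10.16 and 10.00 in wild type and 10.00, 9.90 and 9.96 in cub. Its 24 h values were 9.78, 9.37 and 9.46 in wild type and 9.44, 9.41 and 9.42 in cub, below every 0 h array. The fall was the same size in both, −0.53 ± 0.08 (adjusted p = 1.19e-05 in wild type and 9.01e-06 in cub, limma). Ndufv3 fell by −0.46 ± 0.06 (adjusted p = 3e-06) and −0.48 ± 0.06 (adjusted p = 1.61e-06), and Ndufa13, also known as GRIM-19, by −0.18 ± 0.06 (adjusted p = 0.0297) and −0.34 ± 0.06 (adjusted p = 0.000113). The higher calls were Ndufb7, Ndufa7 and Ndufa11 in wild type and Ndufb6, Ndufa12 and Ndufa8 in cub. Ndufb7 had the largest of these, 0.35 ± 0.08 (adjusted p = 0.000798), and Ndufc1 was the next lower call in cub (−0.26 ± 0.09, adjusted p = 0.0245). Without replicate 1 the wild-type counts were 1 higher and 5 lower. The calls of Ndufa7 and Ndufa11 were then lost (adjusted p = 0.0703 and 0.204), and Ndufb7 stood at 0.24 ± 0.07 (adjusted p = 0.00759). Ndufc1 (−0.20 ± 0.07, adjusted p = 0.042) and Ndufa1 (−0.34 ± 0.08, adjusted p = 0.00177) were then called lower in wild type as well. Calls were also lost in 5 of 32 alternatives for Ndufa13 in wild type, and in 11 for Ndufa12 and 4 for Ndufc1 in cub, each including fits without 1 array. With all arrays, a second row of Ndufa11 differed by 0.02 in wild type and −0.12 in cub, against 0.21 and −0.06 in the row used. A second row of Ndufc1 differed by 0.04 and −0.26, against −0.05 and −0.26.

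Complex II, succinate dehydrogenase, has 4 subunits, and its largest and one of its membrane anchors moved in opposite directions. Sdhd, an anchor subunit that binds ubiquinone, had values of 9.18, 9.25 and 9.18 at 0 h and 9.69, 9.59 and 9.70 at 24 h in wild type. In cub it had 9.11, 9.28 and 9.28 at 0 h and 9.76, 9.63 and 9.63 at 24 h. It rose by 0.46 ± 0.06 (limma, adjusted p = 2.12e-06) and 0.45 ± 0.06 (adjusted p = 2.03e-06), without overlap between the times. Sdha, the flavoprotein that oxidises succinate, had values of 10.99, 10.95 and 10.86 at 0 h and 10.71, 10.62 and 10.74 at 24 h in wild type. In cub it had 10.94, 11.03 and 10.96 at 0 h and 10.80, 10.73 and 10.70 at 24 h. It fell by −0.24 ± 0.06 (adjusted p = 0.00146) and −0.23 ± 0.06 (adjusted p = 0.00188), again without overlap. Sdhb, the iron-sulfur subunit, and Sdhc, the other anchor, differed by −0.11 to 0.02 and were not called at 24 h.

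In complex III, 2 of 9 members rose in wild type and 2 rose and 1 fell in cub. Of all genes, 20.5% were higher and 22.4% lower in wild type, and 21.1% and 24.9% in cub, so the rises were near that share. Cyc1, the cytochrome that passes electrons to cytochrome c, had values of 10.02, 10.05 and 10.02 at 0 h and 10.51, 10.47 and 10.45 at 24 h in wild type. In cub it had 10.02, 10.12 and 10.00 at 0 h and 10.50, 10.45 and 10.39 at 24 h. The times did not overlap in either genotype, and the rise was 0.45 ± 0.05 (limma, adjusted p = 4.37e-07) and 0.40 ± 0.05 (adjusted p = 1.57e-06). Uqcrfs1, the Rieske iron-sulfur protein, was not called (0.00 ± 0.07 and 0.10 ± 0.07). Uqcr10 rose in wild type by 0.34 ± 0.09 (adjusted p = 0.00297), or 0.21 ± 0.08 without replicate 1 at 24 h (adjusted p = 0.0321). In cub, Uqcrc2, a core protein of the complex, rose by 0.16 ± 0.05 (adjusted p = 0.012), and Uqcrh, the hinge protein, fell by −0.25 ± 0.10 (adjusted p = 0.0362). These calls were lost in 2 and 6 of 32 alternatives, fits without 1 cub array among them. Without replicate 1, Uqcrh was called lower in wild type too (−0.24 ± 0.07, adjusted p = 0.0111), as was Uqcrb (−0.15 ± 0.05, adjusted p = 0.0307), so that 2 members rose and 2 fell there.

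**Figure D2:**
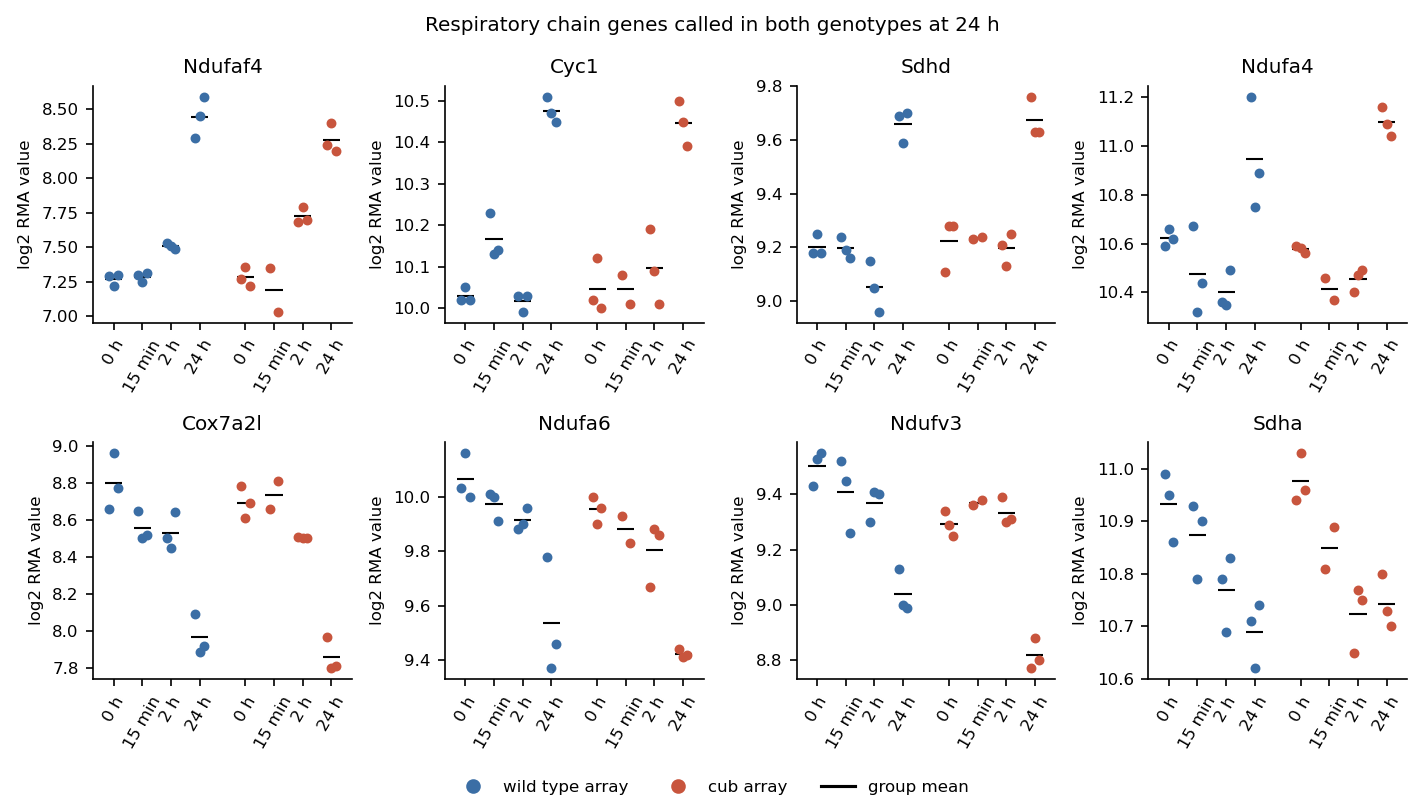
Log2 RMA value of 8 members on each of the 23 arrays (points) with the group mean (bars), by time in wild type and cub, each panel with its own axis. Ndufaf4, Cyc1, Sdhd and Ndufa4 are higher at 24 h, and Cox7a2l, Ndufa6, Ndufv3 and Sdha are lower.

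Complex IV held the largest falls. Cox7a2l, also called SCAF1, is known for a part in joining complexes III and IV, which was not examined in these strains. Its values were 8.66, 8.96 and 8.77 at 0 h and 8.09, 7.89 and 7.92 at 24 h in wild type. In cub it had 8.78, 8.61 and 8.69 at 0 h and 7.97, 7.80 and 7.81 at 24 h. No 24 h array reached the lowest 0 h array. It fell by −0.83 ± 0.08 in both genotypes (limma, adjusted p = 1.67e-08 in wild type and 1.11e-08 in cub), and a second row of this gene on the array differed by −0.77 and −1.04. Cox4i1, the common form of subunit 4, fell by −0.23 ± 0.06 (adjusted p = 0.00319) and −0.26 ± 0.06 (adjusted p = 0.000975).

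Ndufa4, once assigned to complex I and now known as a subunit of complex IV, rose. In wild type its values were 10.59, 10.66 and 10.62 at 0 h and 11.20, 10.75 and 10.89 at 24 h, and in cub 10.59, 10.58 and 10.56 at 0 h and 11.16, 11.09 and 11.04 at 24 h. The times did not overlap, and the rise was 0.32 ± 0.09 (limma, adjusted p = 0.00494) and 0.52 ± 0.09 (adjusted p = 4.11e-05). Without replicate 1 the wild-type difference was 0.20 ± 0.08 and missed the threshold (adjusted p = 0.0535). Its paralogue Ndufa4l2, a target of the hypoxia factor HIF1, went the other way in cub, from 7.51, 8.0 and 7.60 to 7.20, 6.46 and 6.92 (−0.84 ± 0.24, adjusted p = 0.00531). In wild type Ndufa4l2 had 7.21, 7.19 and 7.40 at 0 h and 7.75, 6.41 and 6.50 at 24 h, where replicate 1 lay above and the others below all 0 h arrays. The difference there was −0.38 ± 0.24 (adjusted p = 0.226), or −0.81 ± 0.16 without that array (adjusted p = 0.000384).

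The isoforms Cox6a2, Cox7a1 and Cox8b are known from heart and skeletal muscle, Cox7a1 and Cox8b also from brown fat, while Cox6a1, Cox7a2 and Cox8a are the forms of most other tissues. The promoters of Cox8b (RefSeq, GRCm38.p6, chr7:140900397-140900696, minus strand) and Cox8a (chr19:7217567-7217866, minus strand) are set side by side because the pair behaved differently, 5′ to 3′. Capitals mark E-boxes in Cox8b and ETS motifs in Cox8a.
Cox8b: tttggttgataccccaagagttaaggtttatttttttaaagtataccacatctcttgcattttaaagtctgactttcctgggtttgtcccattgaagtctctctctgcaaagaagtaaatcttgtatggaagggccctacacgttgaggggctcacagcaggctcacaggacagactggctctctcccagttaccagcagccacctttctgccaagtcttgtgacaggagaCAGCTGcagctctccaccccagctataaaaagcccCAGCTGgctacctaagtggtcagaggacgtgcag
Cox8a: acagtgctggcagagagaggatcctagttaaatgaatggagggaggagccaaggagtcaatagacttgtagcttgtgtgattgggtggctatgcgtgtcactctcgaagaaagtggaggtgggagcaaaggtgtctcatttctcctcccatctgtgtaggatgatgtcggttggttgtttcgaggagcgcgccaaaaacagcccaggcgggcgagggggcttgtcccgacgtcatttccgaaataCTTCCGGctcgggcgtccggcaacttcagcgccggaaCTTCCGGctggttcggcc
Those of Cox7a1 (chr7:30183921-30184220, plus strand), in which none of the searched letters occurred, and Cox7a2 (chr9:79759804-79760103, minus strand), with a GC box in capitals, are shown for the same reason.
Cox7a1: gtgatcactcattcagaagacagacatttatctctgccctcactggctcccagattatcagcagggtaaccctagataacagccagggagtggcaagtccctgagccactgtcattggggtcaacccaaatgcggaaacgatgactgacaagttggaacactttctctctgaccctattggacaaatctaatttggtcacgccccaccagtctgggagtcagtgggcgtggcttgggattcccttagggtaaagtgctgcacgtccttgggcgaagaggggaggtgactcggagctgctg
Cox7a2: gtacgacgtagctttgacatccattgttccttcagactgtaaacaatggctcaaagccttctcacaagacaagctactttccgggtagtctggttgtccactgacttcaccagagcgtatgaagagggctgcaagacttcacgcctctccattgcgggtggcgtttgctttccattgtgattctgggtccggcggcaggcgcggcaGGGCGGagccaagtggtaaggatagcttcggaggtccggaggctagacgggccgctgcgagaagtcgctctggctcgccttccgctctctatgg

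All 3 muscle isoforms fell at 24 h in both genotypes. Cox8b had values of 11.20, 11.21 and 10.87 at 0 h and 11.10, 10.11 and 10.24 at 24 h in wild type, and 11.43, 11.58 and 11.32 at 0 h and 10.67, 10.77 and 10.76 at 24 h in cub. The cub groups did not overlap, while in wild type replicate 1 at 24 h lay within the 0 h range. Cox8b fell by −0.61 ± 0.18 (limma, adjusted p = 0.00708) and −0.71 ± 0.18 (adjusted p = 0.00191), and the wild-type value was −0.92 ± 0.13 without replicate 1. Its call in wild type was lost without replicate 2 or replicate 3 at 24 h and in a fit of only the arrays compared (largest adjusted p = 0.0674 over the alternatives).

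Cox7a1 had values of 10.38, 10.52 and 10.04 at 0 h and 10.24, 9.36 and 9.45 at 24 h in wild type. In cub its values were 10.46, 10.66 and 10.50 at 0 h and 9.74, 9.89 and 9.78 at 24 h. The same wild-type array overlapped with 0 h, and the cub groups did not overlap. Cox7a1 fell by −0.63 ± 0.17 (limma, adjusted p = 0.00402) and −0.74 ± 0.17 (adjusted p = 0.000929), and by −0.91 ± 0.13 in wild type without that array. For Cox6a2 the values were 9.73, 9.68 and 9.55 at 0 h and 9.52, 8.84 and 9.02 at 24 h in wild type, and 9.92, 9.89 and 9.83 and then 9.32, 9.38 and 9.42 in cub. It fell by −0.53 ± 0.15 (adjusted p = 0.00557) and −0.51 ± 0.15 (adjusted p = 0.00674), without overlap between the times. Its wild-type value was −0.72 ± 0.14 without replicate 1, and the call was lost without replicate 2 (adjusted p = 0.0519).

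With all arrays, the common partners Cox6a1, Cox7a2 and Cox8a differed from 0 h by −0.05 to 0.12 at 24 h and were not called in either genotype. Cox6a1 in wild type at 24 h had 11.20 on replicate 1 and 10.74 and 10.84 on the others, against 10.81 to 10.97 at 0 h. The pair differences below use all arrays and are not given without replicate 1. Within an array, the difference Cox8a minus Cox8b grew by 0.77 on average over the genotypes, Cox7a2 minus Cox7a1 by 0.67 and Cox6a1 minus Cox6a2 by 0.54. Ndufa4 minus Ndufa4l2 grew by 1.03, and Cox4i1 minus Cox4i2 changed by −0.27. An exact two-sided permutation test of 0 h against 24 h within genotypes gave p = 0.005 or 0.01 for these 5 pairs (adjusted p = 0.01), where 0.005 is the smallest p the 400 arrangements allow. That test was added after the values were seen and uses the same arrays as the calls above.

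Skeletal muscle markers moved with these isoforms. At 24 h, 18 of 19 were lower in wild type and 19 of 19 in cub, with medians of −0.71 and −0.63. Their mean was 10.55 to 10.74 at 0 h and 9.77 to 10.14 at 24 h in wild type, and 10.86 to 10.97 and then 10.12 to 10.30 in cub. Replicate 1 was the highest wild-type array at 24 h in both the markers (10.14) and the mean of the 3 isoforms (10.29, against 9.44 and 9.57). Of the brown adipocyte markers, 2 of 5 were lower and 1 was higher in each genotype, and their mean was 8.02 to 8.14 at 0 h and 7.98 to 8.16 at 24 h in wild type, and 7.82 to 7.90 and then 7.83 to 7.95 in cub. The part of muscle in the isoform falls was not tested. Adipocyte markers were also lower, 10 of 11 in wild type and 11 of 11 in cub, and neutrophil markers were higher, 10 of 10 in each. All these counts stand next to 22.4% of all genes lower and 20.5% higher in wild type, and 24.9% and 21.1% in cub. The brown adipocyte counts rest on 5 genes.

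**Figure D3:**
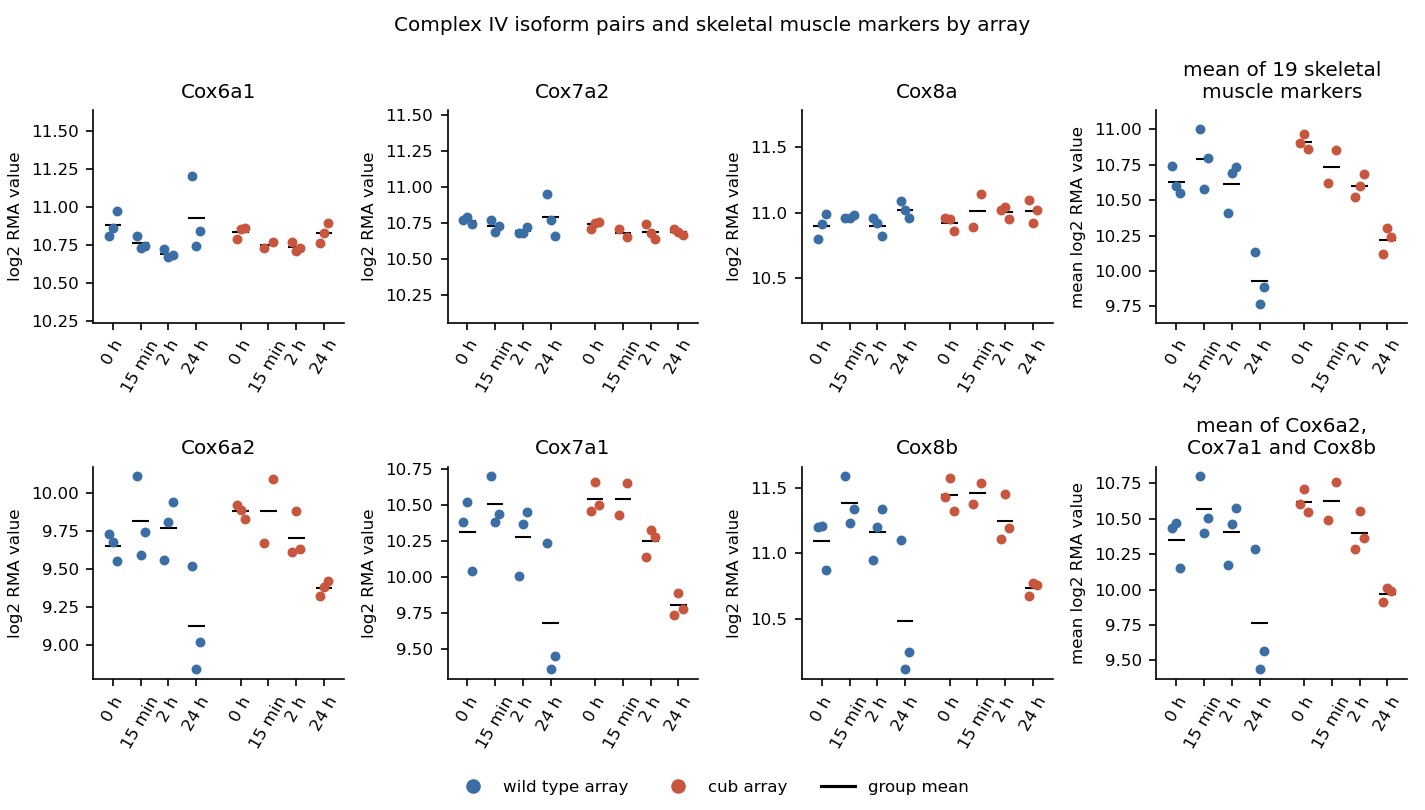
Log2 RMA values on each array (points) with group means (bars) for the common (top) and muscle (bottom) forms of 3 complex IV subunits, with the mean of 19 skeletal muscle markers and of the 3 muscle isoforms at the right, each panel with its own axis. Cox6a2, Cox7a1 and Cox8b are lower at 24 h, with wild type replicate 1 above the rest of its group, and Cox6a1, Cox7a2 and Cox8a were not called.

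The remaining restricted isoforms had no call at 24 h against 0 h. Cox4i2, known from lung and airway, stood at −0.05 ± 0.10 in wild type and 0.09 ± 0.10 in cub. Cox6b2, Cox7b2 and Cox8c are known from testis, and their differences lay between −0.19 and 0.05. Among the other common forms, Cox5b rose in wild type by 0.25 ± 0.06 (limma, adjusted p = 0.00237), or 0.16 ± 0.05 without replicate 1 (adjusted p = 0.0226). Cox6b1 rose in wild type by 0.21 ± 0.06 (adjusted p = 0.00752), a call lost without replicate 1 (adjusted p = 0.0757).

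In ATP synthase, 3 of 17 members rose in wild type, and 5 rose and 1 fell in cub. The shares over all genes were 20.5% higher and 22.4% lower in wild type, and 21.1% and 24.9% in cub. Without replicate 1 at 24 h the wild-type counts were 2 higher and 2 lower, with Atp5l (−0.38 ± 0.07, limma, adjusted p = 0.000151) and Atp5h (−0.21 ± 0.05, adjusted p = 0.0038) called lower. The ring subunit c is encoded by Atp5g1, Atp5g2 and Atp5g3, which specify the same mature protein. Atp5g1 had values of 11.36, 11.49 and 11.49 at 0 h and 11.92, 11.89 and 11.81 at 24 h in wild type, and 11.51, 11.49 and 11.41 and then 11.80, 11.81 and 11.83 in cub. The times did not overlap, and it rose by 0.43 ± 0.06 (limma, adjusted p = 1.58e-06) and 0.34 ± 0.06 (adjusted p = 2.13e-05). Atp5g3 rose by 0.25 ± 0.07 in both (adjusted p = 0.00482 and 0.00481), whereas Atp5g2 was not called (−0.01 ± 0.05 and −0.11 ± 0.05). Atp5a1, the alpha subunit of the catalytic head, was not called either, and Atp5b, the beta subunit, rose by 0.11 ± 0.05 in cub (adjusted p = 0.0472), a call lost in 20 of 32 alternatives. Atp5mpl, a small membrane subunit, rose by 0.23 ± 0.08 in wild type (adjusted p = 0.0146; 0.147 without replicate 1) and 0.26 ± 0.08 in cub (adjusted p = 0.00697). In cub, Atp5md rose by 0.21 ± 0.08 (adjusted p = 0.036; lost in 5 of 32 alternatives) and Atp5j2 fell by −0.25 ± 0.07 (adjusted p = 0.00852).

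Before 24 h the called members were nearly all lower. At 15 min limma called no member against 0 h in wild type (0.0351% of all genes called) or cub (0.0251%). At an unadjusted p under 0.05 there were 14 members (15.6%) in wild type, against 9.16% of all genes, and 12 (13.3%) in cub, against 14.6%. At 2 h in wild type 0 of 90 members were higher and 14 lower, next to 3.98% of all genes higher and 4% lower, and the median was −0.12 against −0.007 over all genes. In cub 1 was higher and 7 were lower, next to 7.66% higher and 4.28% lower, with a median of −0.08 against −0.007. Interactions by limma called 0 members at 15 min (0% of all genes) and 0 at 2 h (0.13% of all genes). At an unadjusted p under 0.05 there were 2 (2.22%) and 4 members (4.44%), against 8.73% and 10.2% of all genes.

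The wild-type falls at 2 h were spread over complex I, complex IV and ATP synthase. Ndufa1, a small subunit of the membrane arm, had the largest, from 8.38, 8.62 and 8.51 to 8.01, 7.93 and 7.98 (−0.53 ± 0.13, limma, adjusted p = 0.0122), with no overlap. The call was lost without 0 h replicate 2 (adjusted p = 0.0688). Ndufb6 fell by −0.34 ± 0.07 (adjusted p = 0.00478) and Atp5mpl by −0.33 ± 0.08 (adjusted p = 0.00811). Ndufs3 was the core subunit called (−0.20 ± 0.05, adjusted p = 0.0119). Smaller falls were called for Cox7a2l, Cox5a, Atp5pb, Ndufab1, Ndufc2 and Ndufaf7 (−0.27 to −0.20). In cub, Sdha fell by −0.25 ± 0.06 (adjusted p = 0.00521) and Sdhb by −0.18 ± 0.05 (adjusted p = 0.0266), and Ndufa13 by −0.21 ± 0.06 (adjusted p = 0.0318). In wild type no complex II member was called at 2 h, but all 4 were lower, with a median of −0.15 against −0.10 in cub. By limma, 3 of them had an unadjusted p under 0.05 in wild type and 2 in cub. The interactions of Sdha and Sdhb at 2 h were not called (limma, adjusted p = 0.767 and 0.937), so this fall was not shown to differ between genotypes. Cox4i1, Ndufaf1, Ndufaf3 and Atp5c1 were called lower at 2 h in both genotypes. Of the wild-type calls at 2 h, Ndufaf1, Ndufb6 and Atp5mpl were kept in all 32 alternatives, and in cub Ndufaf1, Ndufaf3, Ndufaf4 and Sdha were. The wild-type count ranged from 5 to 20 and the cub count from 4 to 15 when 1 array was left out. The highest counts, 20 and 15, came without wild type at 24 h replicate 1. The wild-type count was 5 without wild type at 0 h replicate 2, and 6 to 9 without 0 h replicate 3 or any of the 2 h replicates. The cub count was 4 without cub at 0 h replicate 1, and 5 to 6 without another cub array at 0 h or 2 h. For fits without 1 array, the share of all genes called is not given beside these counts.

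Between 2 h and 24 h, which compares wound rims cut in the same way, more members rose than fell. In wild type 43 rose and 7 fell, next to 21.1% of all genes higher and 20.4% lower, with a median of 0.16 against −0.02 over all genes. Without replicate 1 at 24 h, 30 of those 43 rises were kept and the median was 0.08. In cub 27 rose and 8 fell, next to 18.8% and 23.4%, with a median of 0.07 against 0.01. This comparison shares its 24 h arrays with 24 h against 0 h and its 2 h arrays with 2 h against 0 h. Medians over the members were 0.02 in wild type and −0.002 in cub in the former, and −0.12 and −0.08 in the latter. The rises after 2 h are thus not a result separate from the falls at 2 h. Sdhd rose by 0.61 ± 0.06 in wild type (limma, adjusted p = 4.63e-08) and 0.48 ± 0.06 in cub (adjusted p = 1.2e-06), and Ndufa4 by 0.55 ± 0.09 (adjusted p = 2.86e-05) and 0.64 ± 0.09 (adjusted p = 3.5e-06). Ndufaf4 rose by 0.93 ± 0.08 (adjusted p = 3.31e-09) and 0.56 ± 0.08 (adjusted p = 3.96e-06). Cox7a2l, Ndufa6, Ndufv3, Cox7a1 and Cox8b fell in both genotypes, and Ndufa4l2 fell in cub (−0.93 ± 0.24, adjusted p = 0.00278). In wild type Ndufa4l2 differed by −0.45 and was not called, or by −0.89 ± 0.16 without replicate 1 at 24 h (limma, adjusted p = 0.000168).

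Few members differed between the genotypes. At 0 h 2 of 90 were called, next to 5.25% of all genes, at 15 min 1 (3.45%), at 2 h 1 (4.41%) and at 24 h 4 (5.68%). Averaged over the 4 times there were 7, 2 higher and 5 lower in cub, next to 18.3% of all genes. Medians over the members lay between −0.05 and 0.02 at single times. With all arrays the 24 h median was −0.052, and without wild type at 24 h replicate 1 it was 0.01.

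Ndufa2, an accessory subunit of complex I, was higher in cub at 0 h, at 8.98, 9.06 and 8.90 against 8.55, 8.58 and 8.72 in wild type. The groups did not overlap, and the difference was 0.36 ± 0.10 (limma, adjusted p = 0.0344). The 0 h call was lost without replicate 1 or replicate 2 of either genotype at 0 h (adjusted p up to 0.165). Averaged over times it was 0.18 ± 0.05 (adjusted p = 0.0162). Cox6b2, the testis form of subunit 6b, was at a low level on the array and higher in cub at 15 min, at 6.00 and 6.36 against 5.79, 5.81 and 5.76 (0.39 ± 0.09, adjusted p = 0.0238). That call was lost in 5 of 32 alternatives (0.21 to 0.57, adjusted p up to 0.399), among them without cub at 15 min replicate 3, without any of the wild-type replicates at 15 min, and in a fit of only the arrays compared. Its average difference was 0.20 ± 0.04 (adjusted p = 0.00194). The average calls of Ndufa2, Cox6b2, Ndufb9 and Uqcr11 were kept in all 32 alternatives.

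Uqcr11, the smallest subunit of complex III, was lower in cub at 24 h, at 10.43, 10.44 and 10.28 against 11.10, 10.63 and 10.63. The groups did not overlap, and the difference was −0.40 ± 0.09 (limma, adjusted p = 0.0106), or −0.25 ± 0.07 without replicate 1 of wild type (adjusted p = 0.0394). It was lost without cub at 24 h replicate 3 and in a fit of only the arrays compared (adjusted p up to 0.145). Ndufaf3 (−0.26 ± 0.06, adjusted p = 0.0167), Ndufa11 (−0.25 ± 0.07, adjusted p = 0.0406) and Ndufv3 (−0.22 ± 0.06, adjusted p = 0.0406) were also lower at 24 h. Those 3 calls were lost without that array (adjusted p = 0.0878, 0.201 and 0.159), and Cox8b was then called higher in cub (0.56 ± 0.13, adjusted p = 0.0173). Over the 32 alternatives the calls of Ndufaf3, Ndufa11 and Ndufv3 were lost in 3, 13 and 10. For Ndufa11 these included the mean over all rows of a gene. Ndufaf7 was lower in cub at 0 h (−0.22 ± 0.06, adjusted p = 0.0387), a call lost in 9 of 32 alternatives (adjusted p up to 0.196), and Ndufb11 was higher at 2 h (0.19 ± 0.05, adjusted p = 0.0438), a call lost in 17 of 32 alternatives.

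**Figure D4:**
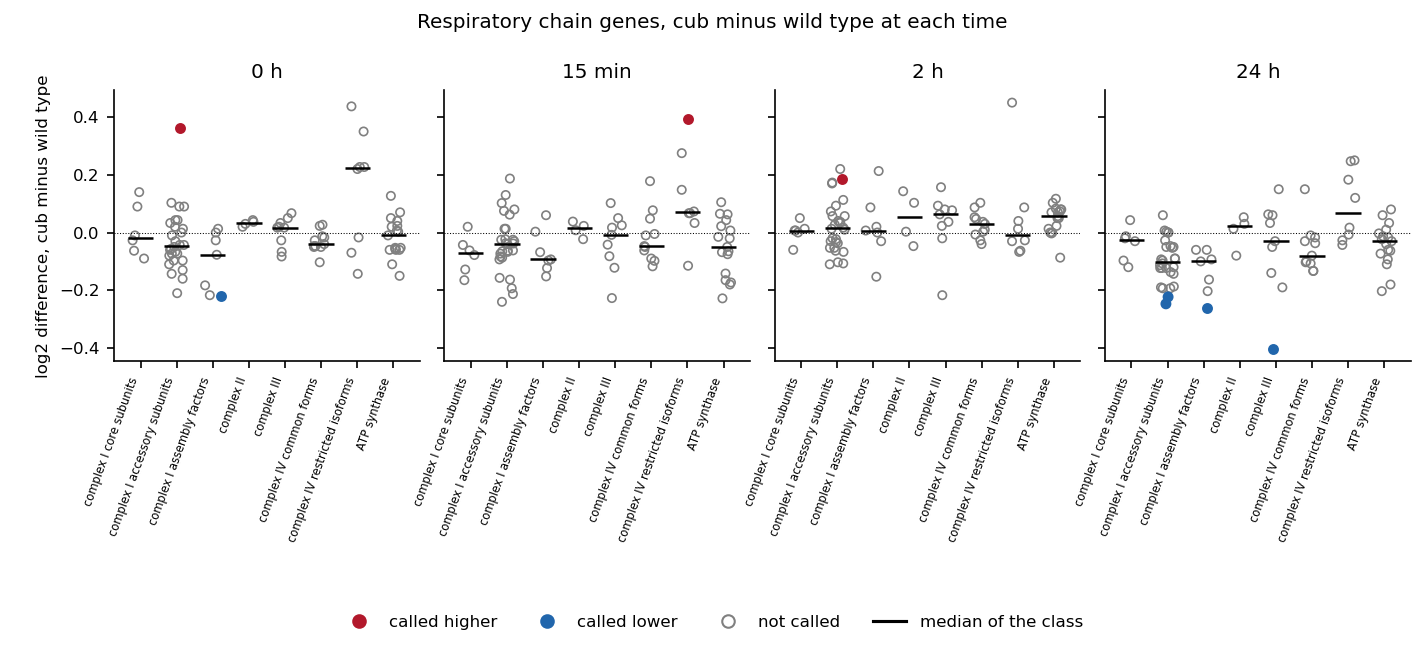
Log2 difference, cub minus wild type, of each member at 0 h, 15 min, 2 h and 24 h, by class of the chain, where points are genes, filled where called, and bars are class medians. The called members number 2, 1, 1 and 4 at the successive times.

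Genes that assemble or feed the chain were called in both directions at 24 h, next to the 20.5% higher and 22.4% lower of all genes in wild type and 21.1% and 24.9% in cub. Of 17 assembly factors of complex IV, 6 were higher and 2 lower in wild type and 7 higher and 6 lower in cub. Cox10, which takes part in making heme a, rose by 0.71 ± 0.07 (limma, adjusted p = 2.58e-08) and 0.52 ± 0.07 (adjusted p = 1.78e-06). Surf1 fell by −0.71 ± 0.05 (adjusted p = 4.84e-10) and −0.70 ± 0.05 (adjusted p = 3.26e-10). Of 8 further assembly factors of complex I, 2 were higher and 2 lower in wild type and 3 higher and 2 lower in cub, among them Acad9, which fell by −0.49 ± 0.07 (adjusted p = 5.15e-06) and −0.68 ± 0.07 (adjusted p = 4.46e-08). In wild type that list of 8 was near the share of all genes in each direction. Among 14 regulators of mitochondrial biogenesis, 4 were higher and 4 lower in wild type and 6 higher and 3 lower in cub, also near the share of all genes in wild type. The coactivator Ppargc1a fell by −0.87 ± 0.14 (adjusted p = 2.78e-05) and −0.92 ± 0.14 (adjusted p = 1.16e-05), and its relative Pprc1 rose by 1.18 ± 0.09 (adjusted p = 9.36e-10) and 0.98 ± 0.09 (adjusted p = 9.91e-09). Cycs, cytochrome c itself, rose by 0.33 ± 0.07 (adjusted p = 0.000652) and 0.42 ± 0.07 (adjusted p = 3.38e-05).

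**Figure D5:**
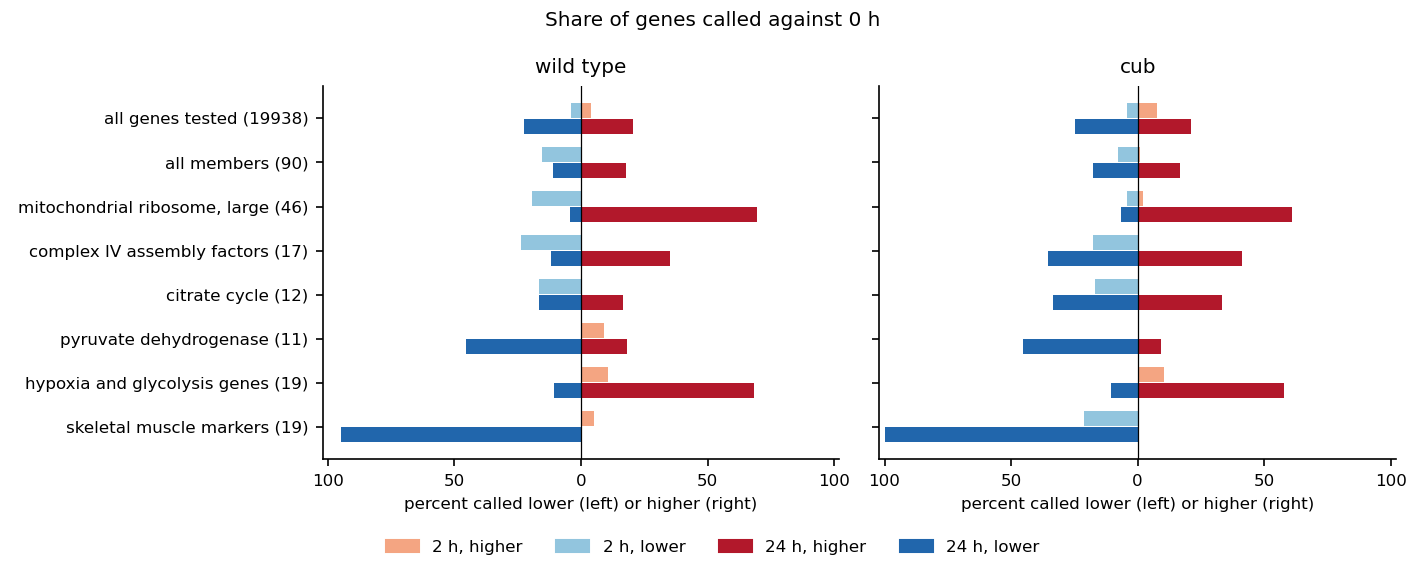
Percent of genes called lower (left of 0) or higher (right of 0) against 0 h, at 2 h (light) and 24 h (dark), in wild type and cub, for all genes, the members and other lists, with the number of genes in brackets. At 24 h the members have 17.8% higher and 11.1% lower in wild type, and 16.7% and 17.8% in cub.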

How the data were processed

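The authors deposited log2 values of 23 arrays. Per the submitters' processing notes, these came from RMA and Affymetrix Expression Console 1.1. They ran from 2.92 to 13.84, and the genome build was not given in the sources used here. Of 35556 rows, 1621 with several symbols and 12146 unnamed rows were left out, and the row with the highest mean stood for a gene. Of 17 members with several rows, 3 had rows that differed in sign at 24 h against 0 h in wild type. The number of arrays limits precision.

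A linear model giving each group its own mean was fitted over all arrays (limma 3.58.1, R 4.3.3), with 15 residual and 5.61 prior degrees of freedom, in 16 comparisons. Tests were two-sided with a Benjamini-Hochberg threshold of 0.05 over 19938 genes. The code was tested on simulated data. The test named in the series' design text, R/maanova, is not used.

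Members, lists and the other genes named were chosen with earlier results of these data known, and the classes of the chain were set after levels and counts were seen, so class counts and medians are descriptions. Per comparison, the text names up to 4 called members per complex and direction, the isoforms, all Sdh genes, and the core and catalytic subunits. The permutation test of isoform pairs, the shorter NRF1 motif and the choice of genes whose promoters are printed came after values were seen. Alternatives covered normalization, row choice, arrays fitted, the replicate block, moderation, weights, q values and each array left out.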

Additional observations from a re-analysis of the deposited data

How the results depend on the processing

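Over 32 alternatives, 106 of 179 calls of a member in a comparison were kept in each, 73 were lost in at least 1 and none reversed. Leaving aside the 23 fits without 1 array, 122 of 144 counts of called members stayed within 1.5 times, and all 144 medians moved by less than the spread between replicates (0.064). Many medians were themselves smaller than that spread, such as 0.02 at 24 h against 0 h in wild type. Moderation, q values and fits of only the arrays compared leave the differences as they are. The result for medians is thus a weak check. The causes of the changes were not tested. With median-centred arrays the genotype count was 0 at 2 h and 2 at 24 h. With quantile normalization over the tested genes it was 4 at 0 h, 0 at 2 h and 2 at 24 h, and 15 members were called at 2 h against 0 h in cub. Fits of only the arrays compared gave 1 at 0 h, 0 at 15 min and 0 at 24 h between genotypes, and 7 at 2 h in wild type. Trend and robust moderation gave 1 at 0 h and 3 at 15 min, and q values gave 2 at 15 min. Array weights gave 4 at 2 h and 2 at 24 h between genotypes, 2 at 15 min in wild type, 28 and 21 at 2 h in wild type and cub, and 1 interaction at 2 h. The share of all genes called in these fits is not given, so a changed count is not a result particular to the members.

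With the replicate block the genotype count was 1 at 0 h, 0 at 2 h and 2 at 24 h, and the other counts stayed within 1.5 times. On average, same-numbered arrays did not deviate together (mean correlation −0.0272, from −0.447 to 0.41, against 0.0137 for other numbers). A mean over pairs of both signs cannot show whether some of these arrays shared more than a number.

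Without 1 array, the genotype counts ranged from 0 to 3 at 0 h, 0 to 2 at 15 min, 0 to 3 at 2 h and 1 to 4 at 24 h. Counts against 0 h ranged from 0 to 1 at 15 min in cub, 5 to 20 at 2 h in wild type and 4 to 15 at 2 h in cub. The median over the members ranged from −0.093 to 0.013 between genotypes at 24 h and from 0.082 to 0.189 for 24 h against 2 h in wild type. The share of all genes called is not given for these fits either. Groups of 2 or 3 arrays limit what could be called.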

Other observations

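The large subunit of the mitochondrial ribosome, which translates the subunits encoded in mitochondrial DNA, was called more in one direction than the respiratory chain. Of 46 genes, 32 were higher and 2 lower at 24 h in wild type (median 0.30), and 28 were higher and 3 lower in cub (median 0.24). Of all genes, 20.5% were higher and 22.4% lower in wild type, and 21.1% and 24.9% in cub. Mrpl19 rose by 0.66 ± 0.07 in both (limma, adjusted p = 9.52e-08 and 6.56e-08), and Mrpl20 by 0.57 ± 0.07 (adjusted p = 1.63e-06) and 0.65 ± 0.07 (adjusted p = 2e-07). Of 19 hypoxia and glycolysis genes, 13 were higher in wild type and 11 in cub, with 2 lower in each, led by the lactate transporter Slc16a3 (1.53 ± 0.13, adjusted p = 2.09e-09, and 1.97 ± 0.13, adjusted p = 2.92e-11). No test compared these lists with the respiratory chain genes, and their counts are not given without wild type at 24 h replicate 1.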
